A study of Mus musculus with 5 samples.

Results

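The 32 genes described here are the mouse chemokine ligand genes of the CC, CXC and CX3C families, chosen by gene symbol from a fixed list with no use of their measured values, and all 32 were among the 24860 genes of the series. Chemokines are small secreted proteins that draw leukocytes along concentration gradients by binding G protein-coupled receptors on the responding cell. Most inflammatory ligands are switched on by cytokines and microbial products in macrophages, neutrophils and stromal cells, whereas homeostatic ligands place lymphocytes and other cells in resting tissue. In tumours, CCR2 ligands are known for drawing monocytes that become macrophages, CXCR2 ligands for drawing neutrophils, and CXCR3 ligands for drawing activated T and NK cells.

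The RNA came from single cells of tumours grown from SSM2, a mouse mammary tumour cell line, of which 100000 cells were put into a mammary gland of mice aged 10 to 12 weeks. Each mouse carried a 60 mg pellet under the skin of the neck, made to release its content over 60 days, and tumours were taken 28 to 62 days later. The placebo group had 2 libraries with a pellet without hormone (Placebo 1 and Placebo 2), and the progesterone group had 3 libraries with a progesterone pellet (Progesterone 1, Progesterone 2 and Progesterone 3). All 5 libraries share the SSM2 graft, and the labels name no strain, no ovariectomy and no other drug. By the sample titles, Placebo 1 and Progesterone 1 formed batch 1 and the other 3 libraries formed batch 2. Progesterone 2 and Progesterone 3 carry the same identifier with a different letter, L or R, in their deposited names, so they may come from 1 animal. Nothing in the labels makes the libraries separate animals, so a p-value here reflects how these libraries scatter, and that scatter may be technical.

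The libraries held 2241 to 5857 barcodes and 23409215 to 204786073 unique molecular identifiers (UMIs, the tags that count transcripts), and pairs of libraries shared 2 to 12 barcodes. Classes of cells were named from marker genes, with the 32 ligands left out of the clustering, so that the ligands' levels could be described across classes. Placebo 1 stands apart: 4152 of its 4744 kept cells were T cells and 1 was an epithelial cell, whereas the batch 2 libraries held 2736 to 3247 epithelial cells each. Placebo 1 had 17 macrophages, 5 fibroblasts and 9 neutrophils, against 335, 53 and 333 in Progesterone 1. The class called macrophages includes monocytes. Cluster 101, which scored highest for monocyte markers, made up 64.7% of the class in Placebo 1 and 49.85% in Progesterone 1. In the batch 2 libraries it made up 1.135% to 3.317%. Epithelial markers (Epcam, keratins and claudins) summed to 17470 to 30120 CPM in the epithelial class, where CPM, the usual per-million scale, divides UMIs of a gene by all UMIs of the class in that library. Of all kept cells, 4299 stayed unnamed.

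A level below is the CPM of a ligand in the summed cells of a class in 1 library, given only where the library held at least 10 cells of the class. In such sums, fewer expressing cells and less RNA per cell cannot be told apart. The leading class of a ligand is the class with the highest mean level over libraries, and 31 of the 32 ligands had the 50 UMIs required for one. Macrophages led for 9 ligands (Ccl8, Ccl12, Ccl6, Ccl9, Ccl24, Cxcl1, Cxcl10, Cxcl11 and Pf4) and fibroblasts for 8 (Ccl2, Ccl11, Ccl19, Cxcl5, Cxcl12, Cxcl13, Cxcl14 and Cx3cl1). Neutrophils led for 5 (Ccl3, Ccl4, Ccl28, Cxcl2 and Cxcl3) and conventional dendritic cells for 3 (Ccl5, Ccl22 and Cxcl16). The epithelial class, which holds the tumour cells, led for 2 (Ccl25 and Cxcl15), endothelial cells for 2 (Cxcl9 and Cxcl17), and 13 mast cells of Progesterone 1 for 2 (Ccl7 and Ccl17). For 12 ligands the leading class stood above the class next in order with no overlap of their ranges over libraries, and for the other 19 the ranges overlapped. Ccl20, a mucosal CCR6 ligand, had 19 UMIs in all and got no leading class.

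**Figure D1:**
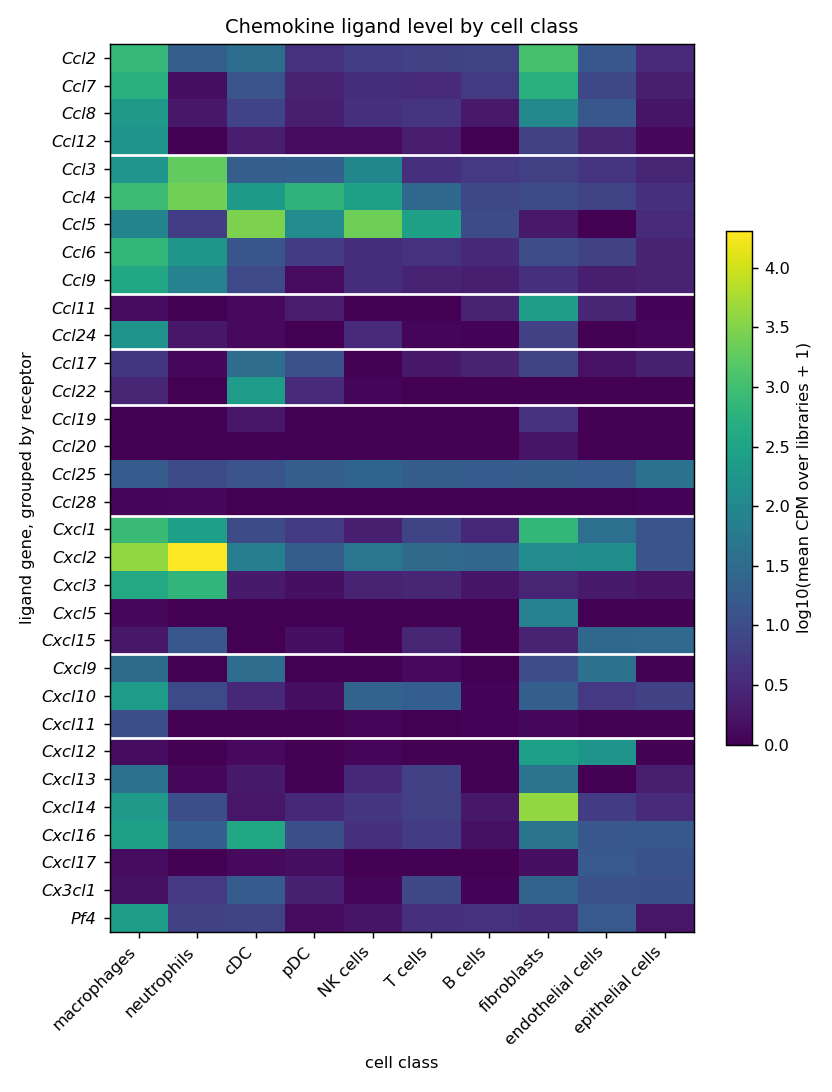
Colour gives the log10 of each ligand's mean level over libraries in CPM plus 1, for the 32 ligands (rows, in receptor groups parted by white lines) and 10 cell classes (columns). Levels above 1000 CPM sit mainly in the macrophage, neutrophil, dendritic, NK and fibroblast columns, with the highest field at Cxcl2 in neutrophils (mean 20270 CPM), while the epithelial column stays below 40 CPM for every ligand.

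The 4 CCR2 ligands, which recruit monocytes, were carried by macrophages and fibroblasts. Ccl2, Ccl7, Ccl12 and Ccl8 are protein-coding genes that lie with Ccl11 in 81.23 kb of chromosome 11 (82035571 to 82116799, GRCm38). Ccl2 stood in fibroblasts at 1126 CPM in Placebo 2 and at 424, 1350 and 1625 CPM in Progesterone 1, 2 and 3. In macrophages Ccl2 was at 1127 and 1595 CPM in the placebo libraries and at 316, 430 and 245 CPM in the progesterone libraries, so the treatment groups did not overlap there. Ccl7, which also binds CCR1 and CCR3, was at 647 and 1345 CPM in placebo macrophages and at 136, 234 and 188 CPM in progesterone macrophages. In fibroblasts Ccl7 ran the other way, with 313 CPM in Placebo 2 and 386, 696 and 744 CPM in the progesterone libraries. The mast cells that lead for Ccl7 rest on 13 UMIs in 13 cells, and without Progesterone 1 macrophages lead. Ccl8 was highest in macrophages of Placebo 2 at 679 CPM, against 175 and 181 CPM in Progesterone 2 and 3, 24.8 CPM in Progesterone 1, and 0 UMIs in the 17 macrophages of Placebo 1. Ccl12, a ligand that human genomes lack, was led by macrophages without overlap, with 52.1 and 437 CPM in the placebo and 37.6, 124 and 130 CPM in the progesterone libraries. Fibroblasts held 21.4 CPM of Ccl12 in Placebo 2 and at most 1.01 CPM elsewhere.

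Among the 5 inflammatory ligands Ccl3, Ccl4, Ccl5, Ccl6 and Ccl9, which draw monocytes, T cells and NK cells, 4 source patterns appeared. Ccl3 was a neutrophil transcript, at 2418, 2359 and 934 CPM in the neutrophils of Progesterone 1, 2 and 3, above all macrophage sums (68.7 to 247 CPM). Placebo libraries had too few neutrophils (9 and 8) for a level. Ccl4 reached 1538, 4997 and 753 CPM in the same neutrophils, but its range overlapped that of macrophages, at 246 and 920 CPM in the placebo and 668, 1366 and 1247 CPM in the progesterone libraries. Ccl5, a ligand known from T and NK cells, was highest in conventional dendritic cells, with 6196 and 2895 CPM in the placebo and 2630, 1661 and 1028 CPM in the progesterone libraries. NK cells overlapped them at 1409 and 3203 CPM in the placebo libraries and 2153 CPM in Progesterone 1. The dendritic level of Placebo 1 rests on 11 cells. NK cells lead for Ccl5 without Placebo 1, with doublets kept, or with at least 1000 genes per cell. T cells were lower, at 57.2 and 314 CPM in the placebo and 448, 285 and 338 CPM in the progesterone libraries, and within T cells of Progesterone 1 the Cd8-positive cells stood at 1239 CPM against 138 CPM in the Cd4-positive cells. Ccl6 and Ccl9, which act through CCR1, were led by macrophages. Ccl6 was at 2310 CPM in Placebo 2 and between 75.8 and 511 CPM in the other 4 libraries, and Ccl9 was at 895 CPM in Placebo 2 and between 197 and 269 CPM in the others.

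The dendritic Ccl5 sat in 1 cluster. The cluster led by Fscn1 and Ccr7, genes of dendritic cells that have matured to migrate, held Ccl5 at 12480 and 12640 CPM in the placebo libraries and 4541 and 4780 CPM in Progesterone 1 and 2. The other dendritic cluster stood at 15.8 CPM in Placebo 2. Ccr7 and Fscn1 were among the naming markers, so their level there is no finding.

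Of the eotaxins, which attract eosinophils through CCR3, each had its own source. Ccl11 was a fibroblast transcript at 404 CPM in Placebo 2 and 25.7, 261 and 296 CPM in Progesterone 1, 2 and 3, with a mean 129 times that of the class next in order. Ccl24 was a macrophage transcript at 493 and 89.0 CPM in the placebo and 138, 28.8 and 73.0 CPM in the progesterone libraries. Both CCR4 ligands, which attract Th2 and regulatory T cells, were sparse. Ccl22 was a dendritic transcript at 347 and 379 CPM in the placebo and 275, 42.3 and 113 CPM in the progesterone libraries, and the Fscn1 cluster held it at 1633 CPM in Placebo 2. Ccl17 had 2130 UMIs, of which 910 fell in unnamed barcodes and 767 in epithelial cells. Its leading mast cells rest on 1 UMI. The unnamed cluster led by Ifitm1, Il1r2 and Plet1 held Ccl17 at 659 CPM in Placebo 2 and 231 and 83.1 CPM in Progesterone 2 and 3. That cluster scored highest for conventional dendritic markers, at 0.55, but its leading genes held more neutrophil markers, so it got no name.

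Of the other CC ligands, Ccl25, the CCR9 ligand of thymus and gut, was the one with a sizeable epithelial level, at 46.4 CPM in Placebo 2 and 36.6, 35.7 and 37.8 CPM in the progesterone libraries. Its mean was 1.66 times that of NK cells, the class next in order. Their ranges did not overlap but nearly met, at 35.66 CPM for the lowest epithelial and 35.09 CPM for the highest NK level. Lower levels were found in other classes too, at 15.0 CPM in the T cells of Placebo 1, a library with 1 epithelial cell, and at 13.1 to 19.0 CPM in macrophages. With cells thinned to 2000 UMIs each, a Ccl25 UMI was found in 6.25% to 8.87% of epithelial cells, 2.48% to 5.26% of T cells and 2.25% to 6.25% of macrophages over libraries. The thinned share was 4.35% to 9.29% in NK cells and 0% to 12.0% in plasmacytoid dendritic cells, both overlapping that of epithelial cells. In Progesterone 3 the shares before thinning were 67.9% of epithelial and 7.58% of T cells. Ccl19, which guides dendritic cells and T cells through CCR7, had 62 UMIs, 56 of them in fibroblasts, and near-identical gene copies make its counts uncertain. Ccl28, a mucosal CCR10 ligand, had 66 UMIs, 52 of them in epithelial cells, and its leading neutrophils rest on 1 UMI.

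The CXCR2 ligands draw neutrophils, and the genes of all 5 lie with Pf4 in 1 stretch of 146.6 kb on chromosome 5 in the order Cxcl5, Pf4, Cxcl3, Cxcl15, Cxcl1 and Cxcl2. Neighbours in this stretch had different sources, and upstream sequences of 5 of them are shown. Each line gives 120 bases before the RefSeq transcript start on the plus strand of GRCm38.p6, 5′ to 3′, with matches to an NF-kappa-B-type motif, GGGNNNTTCC on either strand, in capitals. Pf4, from platelets and macrophages, is at chr5:90772315-90772434, Cxcl3 at chr5:90785981-90786100, Cxcl15 at chr5:90794414-90794533, Cxcl1 at chr5:90891125-90891244 and Cxcl2 at chr5:90903779-90903898.
Pf4: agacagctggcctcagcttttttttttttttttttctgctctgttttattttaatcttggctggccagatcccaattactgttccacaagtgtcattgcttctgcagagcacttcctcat
Cxcl3: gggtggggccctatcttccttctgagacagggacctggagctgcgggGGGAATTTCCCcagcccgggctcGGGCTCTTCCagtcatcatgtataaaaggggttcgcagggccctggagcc
Cxcl15: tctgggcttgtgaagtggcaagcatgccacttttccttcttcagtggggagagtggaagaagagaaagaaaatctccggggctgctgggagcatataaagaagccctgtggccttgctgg
Cxcl1: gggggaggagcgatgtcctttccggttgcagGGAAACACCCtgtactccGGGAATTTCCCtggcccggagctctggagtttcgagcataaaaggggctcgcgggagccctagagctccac
Cxcl2: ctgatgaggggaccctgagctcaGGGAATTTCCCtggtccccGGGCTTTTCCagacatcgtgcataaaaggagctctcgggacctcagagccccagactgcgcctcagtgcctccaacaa
Cxcl1, Cxcl2 and Cxcl3 had 3 matches each, overlapping in pairs, and Pf4 and Cxcl15 had 0. Over 32851 mouse promoters, 2.42% held the motif in the same window, and of the 22 ligands with an entry 6 did (Ccl20, Ccl9, Cxcl1, Cxcl10, Cxcl2 and Cxcl3). In 250 bases the same 6 ligands had a match, against 4.65% of promoters. A further 4 motifs were searched on both strands of the 120 bases: TGANTCA (AP-1 type, 2 ligands, 3.41% of promoters), TTCNNNGAA (STAT type, 1 ligand, 3.15%), the core of the interferon-stimulated response element (0 ligands, 1.22%) and TATAAA (8 ligands, 6.34%). The window, the motifs and the genes shown were chosen after matches had been seen, and a match is a description of letters, not of a bound site.

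Cxcl2 was led by neutrophils without overlap, at 17500, 24070 and 19250 CPM in Progesterone 1, 2 and 3. Macrophages followed at 2850 and 5227 CPM in the placebo and 3086, 5054 and 4047 CPM in the progesterone libraries. With cells thinned to 2000 UMIs, 87.5% to 90.3% of neutrophils and 56.0% to 79.2% of macrophages had a Cxcl2 UMI, against 1.06% to 4.17% of epithelial cells. Unthinned, the epithelial share was 14.6% to 47.2%, at median depths of 36138 UMIs or more per epithelial cell against 2352 to 3609 UMIs per neutrophil. Cxcl3 stood at 974, 342 and 753 CPM in the same neutrophils and at 1608 and 38.1 CPM in placebo macrophages, where the high value rests on the 17 cells of Placebo 1. Cxcl1 was shared by macrophages, at 1037 and 1058 CPM in the placebo and 457, 1062 and 657 CPM in the progesterone libraries, and fibroblasts, at 321 CPM in Placebo 2 and 590, 846 and 1111 CPM in the progesterone libraries. Cxcl5 was a fibroblast transcript, at 50.2 CPM in Placebo 2 and 123, 74.0 and 67.1 CPM in the progesterone libraries, and at or below 0.920 CPM in every macrophage sum. Cxcl15, known from lung epithelium, was the other epithelial ligand, at 19.7 CPM in Placebo 2 and 19.2, 41.4 and 32.3 CPM in the progesterone libraries. In Placebo 2, 78.8% of epithelial cells had no Cxcl15 UMI and the top 10% of cells held 88.4% of them, whereas for Ccl25 these figures were 20.2% and 33.5%. Endothelial cells of Placebo 2 had 78.4 CPM of Cxcl15, from 41 UMIs, with epithelial markers at 5036 CPM in the same cells, whose part in that level was not tested.

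The interferon-induced CXCR3 ligands were uneven across libraries. Cxcl10 in macrophages was at 644 and 80.01 CPM in the placebo and 37.8, 185 and 182 CPM in the progesterone libraries, so the treatment groups overlapped. Cxcl11 was at 35.5 and 2.07 CPM against 2.89, 5.21 and 3.27 CPM, from 15 to 71 UMIs per library. Cxcl9 was spread over endothelial cells, conventional dendritic cells and macrophages with means of 41.6, 34.1 and 31.9 CPM and overlapping ranges.

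Among the remaining ligands, Cxcl14, an attractant of monocytes and dendritic cells, was a fibroblast transcript at 2693 CPM in Placebo 2 and 2350, 5180 and 6097 CPM in Progesterone 1, 2 and 3, with a mean 19.1 times that of macrophages. In Placebo 2 the top 10% of fibroblasts (40 cells) held 64.4% of the Cxcl14 UMIs and 31.6% of fibroblasts had none. Cxcl12, the CXCR4 ligand of stroma, was shared by fibroblasts, at 163 CPM in Placebo 2 and 234, 275 and 408 CPM in the progesterone libraries, and endothelial cells, at 238, 272 and 0 CPM in Placebo 1, Placebo 2 and Progesterone 1. Cxcl16, a membrane-bound ligand of CXCR6, was even across conventional dendritic cells (341 to 458 CPM) and lower in macrophages of the placebo libraries (116 and 238 CPM) than of the progesterone libraries (245, 441 and 425 CPM). Cxcl13, the B cell attractant, stood at 173 CPM in fibroblasts of Progesterone 1. It was a macrophage transcript in Placebo 2, Progesterone 2 and Progesterone 3 (92.5, 62.3 and 44.1 CPM). The fibroblast lead rests on few cells, since 3.33% of the 30 thinned fibroblasts of Progesterone 1 had a Cxcl13 UMI. Macrophages held 1993 of its 2636 UMIs and lead without Progesterone 1. Pf4, like Ccl6, was highest in the macrophages of Placebo 2, at 9.48 and 782 CPM in the placebo and 166, 170 and 161 CPM in the progesterone libraries. Cx3cl1, the membrane-bound CX3CR1 ligand, was low, with 19.2 to 27.1 CPM in fibroblasts and 7.55 to 11.7 CPM in epithelial cells. Cxcl17, a mucosal ligand, was at 17.5 CPM in epithelial cells of Placebo 2 and at 9.06, 8.88 and 8.94 CPM in the progesterone libraries, and its leading endothelial cells rest on 16 UMIs.

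A class with the highest level need not hold most of the UMIs, because classes differ in size. In Placebo 2, macrophages held the largest share for 16 of the 28 ligands with at least 50 UMIs, epithelial cells for 5 and fibroblasts for 4. Macrophages held 91.4% of the Cxcl2 UMIs of Placebo 2 and 91.0% of Progesterone 2, and in Progesterone 1, with 333 neutrophils, the neutrophils held 57.6%. Ccl2 UMIs were 55.0% macrophage and 40.2% fibroblast in Placebo 2 (exact 95% binomial intervals cover counting error only), but 26.9% macrophage and 69.2% fibroblast in Progesterone 3. Cx3cl1 was 81.8% epithelial in Placebo 2 despite its higher level in fibroblasts. In the batch 2 libraries, epithelial cells also held 93.3% to 98.2% of the Cxcl15 UMIs.

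The receptors give the other side of these pairs. Ccr1, a receptor of Ccl3, Ccl5, Ccl6 and Ccl9, was highest in neutrophils at 968, 659 and 1115 CPM in Progesterone 1, 2 and 3. Ccr4 and Ccr8 were T cell transcripts, and Ccr8 stood at 1.38 and 41.4 CPM in the placebo and 14.1, 32.7 and 64.2 CPM in the progesterone libraries. Cxcr3 was at 5.61 and 67.2 CPM in T cells of the placebo and 21.1, 51.3 and 101 CPM of the progesterone libraries, and Cxcr6 peaked in the same class at 74.1 CPM. Cx3cr1 was highest in macrophages (54.5 to 308 CPM). Ackr3, an atypical receptor that removes Cxcl12, was highest in fibroblasts at 18.8 to 243 CPM, beside their own Cxcl12. Ccrl2, an atypical receptor that binds chemerin, reached 3347, 3564 and 1422 CPM in neutrophils. Ccr2, Cxcr2, Ccr7, Ccr9 and Xcr1 were naming markers, so their class is no finding. Of the chemokine ligands outside the list, Xcl1 was an NK transcript (1046 to 1327 CPM), and Ccl21a and Ppbp were at most 1.83 CPM in their leading classes.

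Progesterone was compared with placebo on sums per library with edgeR's quasi-likelihood test, with batch as a block, p-values adjusted by Benjamini-Hochberg over all genes tested in the class, and 0.05 as the threshold. In macrophages Ccl7 fell, and its neighbour Ccl2 was lower in every progesterone library without passing. Of the 23 ligands tested, 1 passed, against 0.0505% of the 11870 genes tested (6 genes). The log2 ratio of Ccl7 was -2.46 ± 0.22 (SE, adjusted p = 0.0063, 2 placebo and 3 progesterone libraries), and each progesterone library was 4.76 to 7.18 times lower than the placebo library of its batch. In batch 1 the placebo level rests on 17 cells of the macrophage class, most of them in the monocyte cluster 101. Of the 17 cells 17.65% had a Ccl7 UMI, against 18.21% of the 335 of Progesterone 1, so the share of cells was not lower there. In batch 2 the shares were 64.68% in Placebo 2 and 31.06% and 20.95% in Progesterone 2 and 3. Without the batch block, Ccl7 had an adjusted p of 0.701, and 0 of the 23 ligands passed. Ccl2, named here after its values were seen, was 3.57 to 6.51 times lower within batches, with a log2 ratio of -2.03 ± 0.27 and an adjusted p of 0.0631. An unadjusted p under 0.05 was found for 11 of the 23 ligands and for 1671 of the 11870 genes. The median log2 ratio was -0.64 over the 23 ligands against 0.03 over all genes tested. The number of ligands that passed was 18 of 25 without either batch 1 library, 13 of 25 without Placebo 2, 2 of 22 without Progesterone 2 and 3 of 22 without Progesterone 3, and Ccl7 passed each time. The genes called rose with them, to 2154 of 12477 without Placebo 1, 2148 of 12361 without Progesterone 1, 1886 of 12170 without Placebo 2, 107 of 11475 without Progesterone 2 and 28 of 11571 without Progesterone 3. Macrophage markers summed to 3067 and 22290 CPM in the placebo and 12420, 33490 and 30700 CPM in the progesterone macrophages, and monocyte markers to 5415 and 878 against 2044, 349 and 435 CPM. The part of this difference in the fall of Ccl7 was not tested.

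Within batches, 5 of the 16 ligands with enough UMIs in both batches were lower in all 3 progesterone libraries than in the placebo library of the batch (Ccl2, Ccl7, Ccl12, Ccl9 and Ccl24), and 3 were higher (Ccl4, Cxcl14 and Cxcl16). Ccl9 was only 1.05 times lower in batch 1, and both ratios of batch 2 share Placebo 2. The share of all genes with such an order was not counted, so these numbers do not set the ligands apart. Fitted log2 ratios that missed the threshold in macrophages were -1.33 for Ccl12, -1.19 for Ccl9, -1.21 for Ccl24, -1.10 for Ccl8, -1.02 for Ccl6, -0.64 for Cxcl1 and -0.78 for Pf4. Those of Cxcl10 (-1.15) and Cxcl11 (-0.61) also missed it and turned positive, to 1.22 and 1.10, without Placebo 1. Without Placebo 2 the ratios of Ccl8, Ccl6 and Pf4 turned positive as well, to 10.34, 2.14 and 4.18, and that of Pf4 was 0.13 without Progesterone 2. Of 8 chemokine receptors tested in macrophages 0 passed, 4 of them with an unadjusted p under 0.05 (1671 of 11870 over all genes), among them Cx3cr1 at 1.26 and Ccr2, the receptor of Ccl2 and Ccl7, at -1.09. Of 9 inducing cytokine and signalling genes tested, 0 passed, and Tnf and Il1b stood at 0.23 and 0.32.

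**Figure D2:**
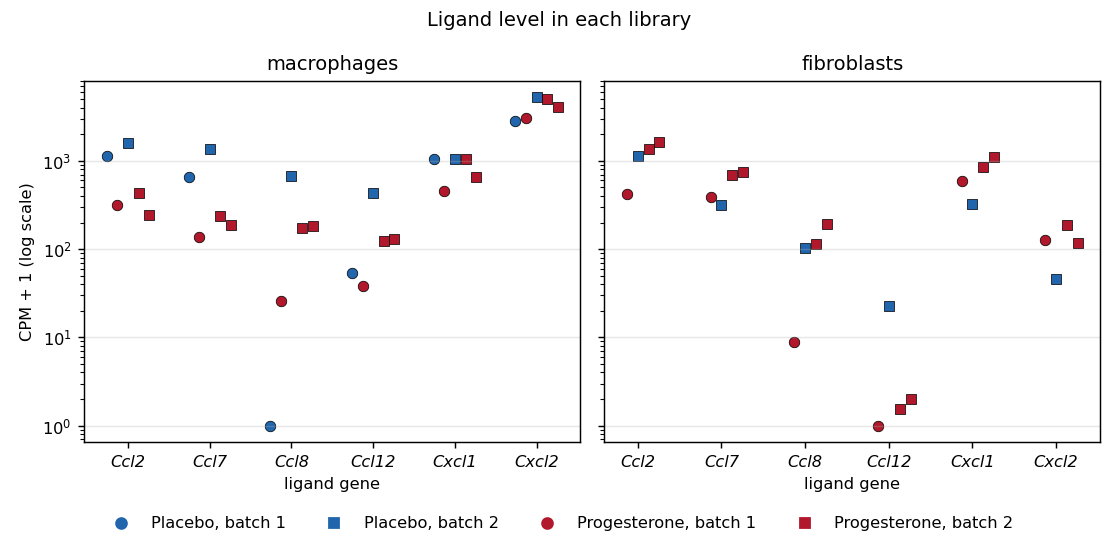
Points give the level of 6 ligands as CPM plus 1 on a log axis, 1 point per library with at least 10 cells of the class, coloured by treatment and shaped by batch, in macrophages (left) and fibroblasts (right). Ccl2 and Ccl7 lie lower in the 3 progesterone than in both placebo macrophage sums, and Ccl7 lies higher in the progesterone than in the single placebo fibroblast sum.

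The macrophages of batch 2 also differed in which clusters they filled. Cluster 118, led by Cd209g, Lyve1, Cd209f, Ednrb and Fcna, held 15.9% of the macrophages of Placebo 2 (96 cells), 1 cell of Progesterone 2 and 0 cells of Progesterone 3. In Placebo 2 it had the highest levels among macrophage clusters of Ccl7 (3824 CPM), Ccl2 (3557 CPM), Ccl8 (2627 CPM), Ccl12 (1286 CPM), Ccl6 (4746 CPM) and Pf4 (1344 CPM). Cluster 116, led by Lyz1 and Retnla, made up 31.7% of macrophages in Placebo 2 and 7.64% and 11.95% in Progesterone 2 and 3 and held Ccl9 at 1495, 1195 and 1178 CPM in these libraries. Clusters 112, led by Syngr1, H2-M2 and Apoe, and 115, led by 5430437J10Rik, Rnf180 and Il12b, had larger shares in both progesterone libraries than in Placebo 2, at 29.3% and 27.3% against 12.6% and at 20.95% and 21.9% against 8.79%. Cluster 115 held Ccl4 at 4048 CPM in Placebo 2 and 2868 and 2499 CPM in Progesterone 2 and 3. The cluster led by Pclaf, Hist1h1b and Top2a, genes of dividing cells, held it at 527, 1702 and 3335 CPM in the same order. Over the clusters filled in both libraries, Ccl4 was lower than in Placebo 2 in 3 of 8 in Progesterone 2 and in 5 of 7 in Progesterone 3. These cluster shares come from 3 libraries of which 2 may be 1 animal, and they carry no test.

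Inside the clusters that both libraries filled with at least 10 cells, Ccl7 and Ccl2 were lower in 7 of 8 clusters in Progesterone 2 and in 7 of 7 in Progesterone 3 than in Placebo 2. Ccl8 was lower in 8 of 8 and 7 of 7. Averaged over these clusters by cell number, Ccl7 was 949 CPM in Placebo 2 and 229 CPM in Progesterone 2, and with the clusters weighted as in Placebo 2 it was 320 CPM in Progesterone 2. For Progesterone 3 the same values were 988, 188 and 272 CPM. Ccl6 depended more on the weights, at 1752 CPM in Placebo 2, 344 CPM in Progesterone 2 and 1026 CPM in Progesterone 2 weighted as in Placebo 2. In batch 1, most macrophages of Placebo 1 (64.7%, 11 cells) lay in cluster 101, led by the monocyte genes Chil3, Plac8 and Ly6c2, where Ccl7 was 1231 CPM against 89.2 CPM in 167 such cells of Progesterone 1.

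**Figure D3:**
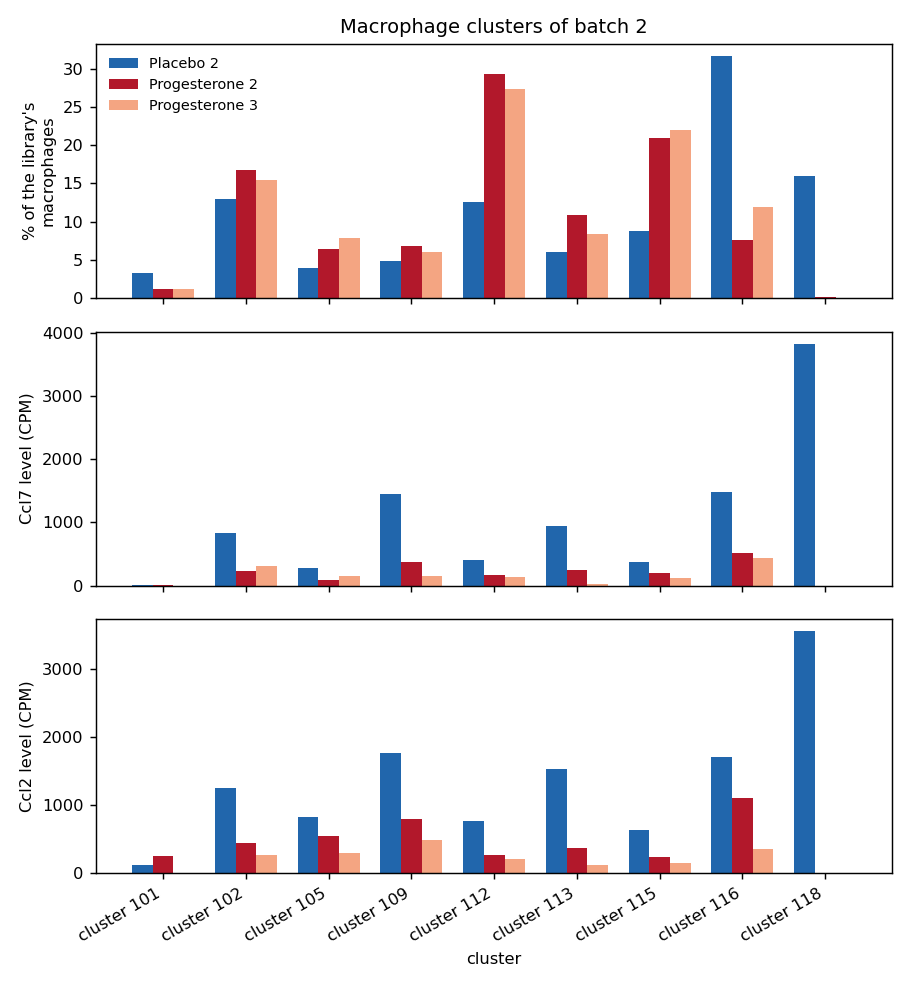
Bars give, for the 3 libraries of batch 2 and each macrophage cluster, the percent of the library's macrophages in the cluster (top) and the level of Ccl7 and Ccl2 in CPM (middle and bottom), with no level where the library held fewer than 10 cells of the cluster. Cluster 118 is filled in Placebo 2 and nearly empty in both progesterone libraries, and the Ccl7 bars of Placebo 2 are the highest in every filled cluster but 101.

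Fibroblasts changed in both directions. Of 24 ligands tested 5 rose and 2 fell, against 1.58% of the 11833 genes tested. The rising ligands were Ccl7 (log2 ratio 1.39 ± 0.23 SE, adjusted p = 0.012), Cxcl1 (1.80 ± 0.27, adjusted p = 0.00977), Cxcl2 (1.94 ± 0.29, adjusted p = 0.012), Cxcl14 (1.25 ± 0.24, adjusted p = 0.0302) and Cxcl16 (1.64 ± 0.26, adjusted p = 0.0117). All these ratios rest on batch 2, since Placebo 1 had 5 fibroblasts, so they compare Placebo 2 with Progesterone 2 and 3 and leave 1 residual degree of freedom. Cxcl2 had 44.3 CPM in Placebo 2 and 188 and 116 CPM in Progesterone 2 and 3, and Cxcl16 13.7, 36.7 and 38.1 CPM. Without the batch block, which sets Progesterone 1 beside them, 0 of the 24 ligands passed. Both ligands that fell were near the floor: Ccl12 had 193 UMIs in Placebo 2 and 1 and 3 UMIs in Progesterone 2 and 3 (adjusted p = 0.00412), and Cxcl13 had 58, 0 and 0 UMIs (adjusted p = 0.00655) with 175 UMIs in Progesterone 1. Fitted ratios of fibroblast-led ligands that missed the threshold were 0.59 for Ccl2, -0.35 for Ccl11, 0.17 for Ccl19, 0.67 for Cxcl5, 1.26 for Cxcl12 and -0.10 for Cx3cl1. Macrophage markers summed to 1722 CPM in the fibroblasts of Placebo 2 and to 1860 and 2803 CPM in those of Progesterone 2 and 3, and their part in these ratios was not tested. Ccl7 per 100 C1q UMIs (C1qa, C1qb and C1qc, which macrophages make) was 625 in fibroblasts of Placebo 2 against 19.1 in its macrophages.

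Whether the treatment ratio differs between macrophages and fibroblasts was tested with the library as a block, a comparison added after these values were seen. For Ccl7 the difference of log2 ratios was -3.82 ± 0.53 (SE, edgeR adjusted p = 0.715), and 0 of the 29 ligands and 0 of 14301 genes passed (0%, 585 with an unadjusted p under 0.05). Against T cells, 0 of 25 ligands and 0 of 12672 genes differed (0%, 533 with an unadjusted p under 0.05), and against epithelial cells 0 of 28 ligands and 0.265% of 14357 genes. With a term for the difference between the classes in each batch added, or without Progesterone 1, 10 ligands differed between macrophages and fibroblasts, against 3.85% of the genes tested. Ccl7 was among them, with a difference of -3.96 ± 0.34 (edgeR adjusted p = 6.25e-28) and of -3.98 ± 0.35 (edgeR adjusted p = 2.71e-26). Either way the difference rests on Placebo 2 against Progesterone 2 and 3, so whether the opposite directions of Ccl7 differ depended on how batch 1 entered. Against T cells 7 ligands differed without Placebo 2 (3.72% of genes), and against epithelial cells 5 did without Progesterone 1 (20.7% of genes).

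**Figure D4:**
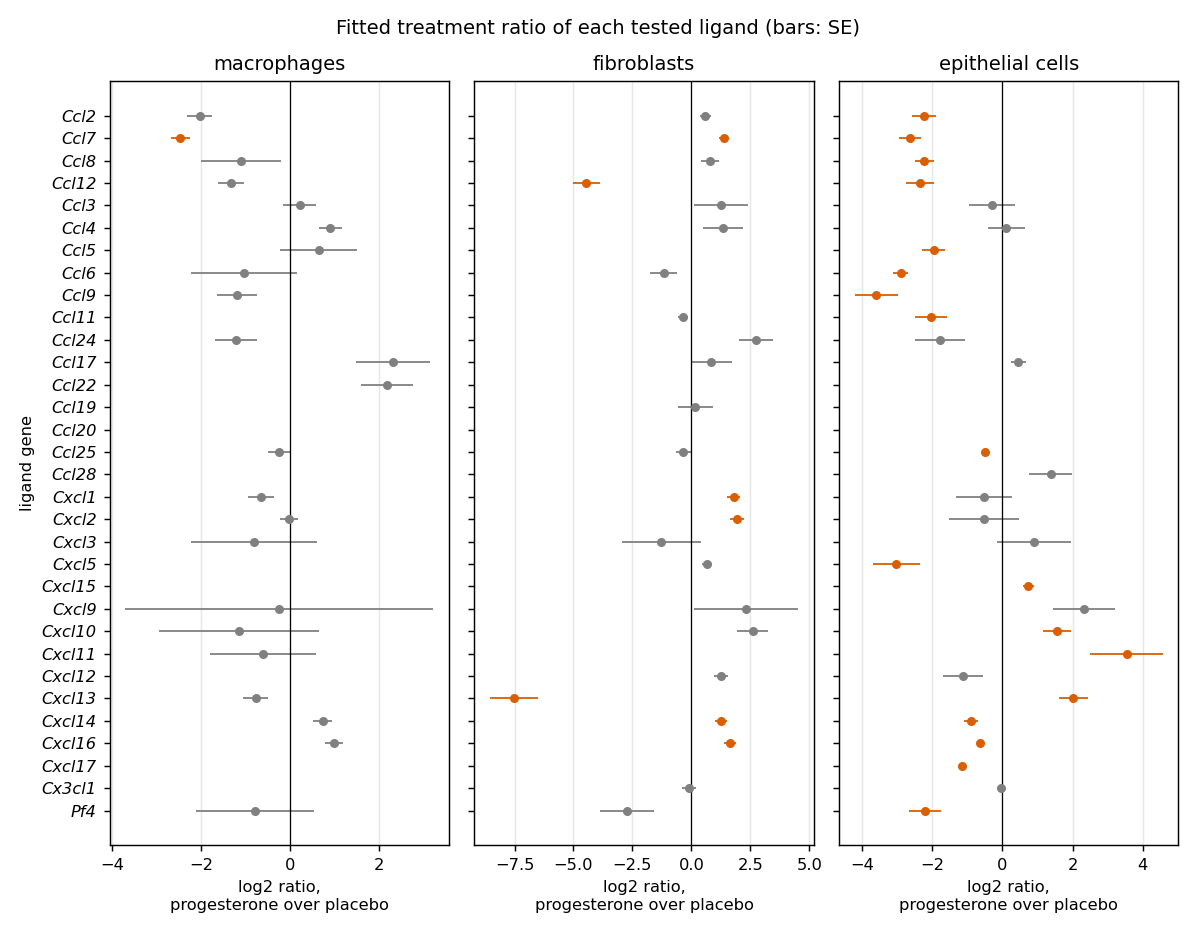
Points give the fitted log2 ratio of progesterone over placebo for each ligand tested in macrophages, fibroblasts and epithelial cells, bars give its standard error, and orange marks adjusted p under 0.05. Orange points number 1 in macrophages, 7 in fibroblasts and 18 in epithelial cells, and Ccl7 lies left of 0 in macrophages and right of 0 in fibroblasts.

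In epithelial cells 4 ligands rose and 14 fell of 29 tested, near the background of 48.6% of all 16228 genes tested, so these counts do not set the ligands apart. The comparison is again Placebo 2 against Progesterone 2 and 3. Cxcl15 rose (log2 ratio 0.74 ± 0.17, adjusted p = 0.0143) and Ccl25 fell (-0.50 ± 0.09, adjusted p = 0.00074), the ligands that this class leads. Without the batch block 7 of the 29 ligands passed (1947 of 16228 genes), and Cxcl15 (adjusted p = 0.384) and Ccl25 (adjusted p = 0.0677) did not. With cells thinned to the lowest total 0 of 16 ligands and 0 of 12182 genes passed, and both ratios changed sign, to -1.87 for Cxcl15 and 0.17 for Ccl25. Cxcl17 fell from 17.5 to 8.88 and 8.94 CPM and Cxcl16 from 18.4 to 13.3 and 13.3 CPM. Cxcl10 rose from 1.75 to 7.19 and 4.31 CPM, Cxcl13 from 0.201 to 0.678 and 1.17 CPM, and Cxcl11 from 1 UMI to 13 and 19 UMIs. The other 11 that fell were Ccl2, Ccl7, Ccl8, Ccl12, Ccl5, Ccl6, Ccl9, Ccl11, Cxcl5, Cxcl14 and Pf4, all led by other classes and all at or below 5.23 CPM in epithelial cells of Placebo 2. Macrophage markers in these epithelial sums were 32.4 CPM in Placebo 2 and 55.8 and 38.4 CPM in Progesterone 2 and 3. Ccl7 per 100 C1q UMIs went from 44.6 to 6.74 and 5.49 in epithelial cells and from 19.1 to 2.42 and 2.02 in macrophages of the same libraries. The part of RNA from other cells in these falls was not tested.

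In conventional dendritic cells 0 of 8 ligands and 0% of 5017 genes passed in edgeR, 4 ligands had an unadjusted p under 0.05 (278 of 5017 over all genes), and DESeq2 passed 0. Without Placebo 1 the number that passed was 4 of 15 (115 of 6393 genes), without Progesterone 1 it was 3 of 12 (81 of 6309 genes), and without Progesterone 2 it was 1 of 7 (5 of 4154 genes). Ccl5 there had a log2 ratio of -1.19 ± 0.24 (adjusted p = 0.171), Ccl22 of -1.63 ± 0.50 and Cxcl16 of -0.23 ± 0.28. In plasmacytoid dendritic cells 3 of 7 ligands fell, against 0.94% of 7338 genes, again from batch 2 alone. Ccl4 fell from 933 CPM in Placebo 2 to 252 and 297 CPM (log2 ratio -1.76 ± 0.16, adjusted p = 4.66e-05), but it was 1041 CPM in Progesterone 1, which had no placebo library to stand beside. Ccl3 went from 46 UMIs to 2 and 0, and Ccl17 from 31 UMIs to 0 and 0. Of the 51 plasmacytoid dendritic cells of Placebo 2, only 1.961% held those Ccl17 UMIs and 11.76% held those of Ccl3. These 2 falls thus rest on very few cells. In T cells 0 of 5 ligands passed in edgeR, against 0.0128% of 7815 genes, with 1 unadjusted p under 0.05 (Ccl4, log2 ratio 2.72 ± 0.71) and 0 passed in DESeq2. Without Placebo 2, 6 of 12 ligands passed in T cells, with 493 of 11208 genes. In B cells 0 of 2 passed, against 0.413% of 7498 genes, with 1 unadjusted p under 0.05 (Cxcl2) and 0 in DESeq2. Neutrophils, NK cells and endothelial cells lacked the libraries for a test. Within batch 1, Ccl4 in NK cells was 145 CPM in Placebo 1 and 685 CPM in Progesterone 1, and Ccl5 was 1409 and 2153 CPM.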

How the data were processed

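Single cells of 5 SSM2 tumour libraries were measured with a droplet kit that reads transcript 3' ends. The deposited matrices held counts, whole UMIs per gene and barcode, used as deposited. Per the file headers, Cell Ranger 8.0.1 wrote them. The build is mm10 per the submitters' processing notes, which give Cell Ranger 7.0.0 instead. No barcode had fewer than 500 UMIs, and the 24860 symbols held 0 mitochondrial genes.

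Barcodes with at least 250 genes were kept, and simulated-doublet scores removed 1.785% to 4.678% of barcodes per library. Counts were scaled to 10000 per cell and logged, and 2000 variable genes without the 32 ligands, 30 principal components and 20 neighbours went into Leiden clustering at resolution 1 (scanpy 1.11.5). Myeloid clusters were clustered again, by a rule widened after their markers were seen. Clusters were named from marker lists when their score was at least 0.5 with at least 3 markers.

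Counts were summed per class and library and tested with edgeR 4.0.16 (R 4.3.3), all genes that pass its expression filter, with batch as the block. The pairing comes from the batch in the sample titles. Alternatives were DESeq2 1.42.0, other scaling, filters, thinning, clusterings and leaving out libraries. On simulated data the macrophage fit (11870 genes) recovered 86 of 100 genes changed by a log2 fold of 1 and 100 of 100 at 2. The epithelial fit (16228 genes) recovered 59 of 100 and 100 of 100. The simulated libraries had a fixed spread for all genes and no batch difference, so recovery in the real libraries was not measured.

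All 32 ligands are accounted for, and 1 receptor is not reported here. Treatment ratios are printed for ligands that passed in a class or that the class leads. Ccl2 in macrophages and Ccl4 in T cells meet neither rule, and their ratios are printed as well. The members, gene lists and rules were chosen with earlier results of these data known. Upstream sequences are those of RefSeq for GRCm38.p6, and 22 ligands had an entry. Gene positions are those of the GENCODE annotation of GRCm38, the assembly of mm10.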

Additional observations from a re-analysis of the deposited data

Results flagged for a closer look

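The barcodes that stayed unnamed belong to no comparison, and 10 ligands had a higher level there in every progesterone library than in both placebo libraries. The share of all genes with this order was not counted, so the number does not set the ligands apart. The lowest progesterone and highest placebo levels were 381.8 and 255.1 CPM for Cxcl2, 99.94 and 54.81 CPM for Cxcl16, 77.9 and 70.57 CPM for Ccl9, and 53.91 and 48.22 CPM for Ccl4. For Cxcl14 they were 53.68 and 37.69 CPM, for Cxcl1 50.45 and 35.7 CPM, and for Cxcl10 19.34 and 14.28 CPM. Lower levels were those of Ccl3, at 9.446 and 5.852 CPM, Cxcl3, at 9.225 and 1.768 CPM, and Ccl24, at 2.449 and 2.224 CPM. These barcodes were shallow, with a median of 1321 to 3697 UMIs per library, and their difference between treatments was not tested.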

How the results depend on the processing

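The batch block paired placebo and progesterone libraries, and without it the ligands that passed went from 1 to 0 in macrophages, from 18 to 7 in epithelial cells and from 7 to 0 in fibroblasts. In macrophages the number was 4 in DESeq2 (151 of 11870 genes), 10 with no filter (726 of 17653 genes), 2 with the ligands kept in the clustering and 3 with at least 1000 genes per cell (39 of 11759 genes), and 2 to 18 with 1 library left out. With the ligands kept, 14 of 11837 genes passed in macrophages. With cells thinned to the lowest total the number of ligands was 0 in macrophages, epithelial cells and plasmacytoid dendritic cells. Epithelial cells had 9 with at least 1000 genes per cell (2743 of 15754 genes), and fibroblasts 12 at resolution 2 (805 of 11567 genes). Conventional dendritic cells (0) had 4 with no filter, 2 with doublets kept, 2 with at least 1000 genes, 3 with the narrower second pass and 0 to 4 with a library left out. Over all genes, conventional dendritic cells had 49 of 13542 with no filter and 31 of 4757 with doublets kept. They had 35 of 6483 with at least 1000 genes per cell and 47 of 5077 with the narrower second pass. Plasmacytoid dendritic cells (3) had 1 in DESeq2 (4 of 7338 genes), and 0 with no filter (0 of 13670) or with the ligands kept (5 of 6773). With no filter 248 of 17864 genes passed in T cells and 76 of 14559 in B cells. With doublets kept 77 of 7717 genes passed in B cells. T cells (0) had 1 with no filter and 0 to 6 with a library left out, and B cells (0) had 1 with no filter and 1 with doublets kept. Between macrophages and T cells 6 ligands differed with the class-by-batch term, 4 with no filter and 0 to 7 with a library left out. Against epithelial cells these were 3 with the term and 0 to 5, and against fibroblasts 10 with the term and 0 to 10. Over all genes, 2.05% differed between macrophages and T cells with the term and 0.418% with no filter. With the term 23.6% differed against epithelial cells and 3.85% against fibroblasts. The leading class stayed for 23 to 28 of 31 ligands under other clusterings and cell minimums and for 25 to 30 with a library left out.

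Of 570 refits of 48 single ratios, 546 kept their direction. With 1 library left out, macrophage ratios ran from -4.047 to 1.223 for Cxcl10 and from -3.565 to 1.097 for Cxcl11 (lowest without Placebo 2, positive without Placebo 1 or Progesterone 1). They ran from -1.909 to 10.34 for Ccl8, from -2.451 to 2.139 for Ccl6 and from -2.213 to 4.175 for Pf4 (lowest without Placebo 1, highest without Placebo 2), and Pf4 was 0.1256 and 0.1775 without Progesterone 2 and 3. In thinned epithelial cells Ccl25 was 0.1702, Cxcl15 -1.868, Cxcl14 0.2524 and Cxcl16 8.406. In conventional dendritic cells Cxcl16 was 0.5963 thinned, 0.006773 at resolution 2 and 0.02441 with the ligands kept, and Ccl22 was 1.485 with doublets kept and 1.484 with the narrower second pass. In fibroblasts Ccl19 was -0.2694 and Cxcl13 3.142 without the block, and Cx3cl1 was 0.02047 at resolution 2, 0.0265 with the ligands kept, 0.005135 with doublets kept and 0.02607 with at least 1000 genes. The narrower second pass and the comparison of macrophages with fibroblasts were chosen after seeing the data. For all these changes the cause was not tested. Classes with 5 to 17 cells in Placebo 1 limit what batch 1 can show.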

Other observations

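Among the unnamed barcodes, 2 shallow clusters held Ccl8. Macrophage markers were the highest-scoring list in both, at 0.52 in the first and 0.36 in the second. Against all other clusters the first was led by Ccl8, Pf4 and Mmp12, and the second by Ccl8, Wfdc17 and Cbr2. The genes named below lead within the myeloid clusters. The cluster led by Jchain, Retnlg and Skap1 (283 barcodes) had 1418, 1032 and 2122 CPM of Ccl8 in Placebo 1, Progesterone 1 and Placebo 2, and 0 CPM in 11 barcodes of Progesterone 3. The cluster led by Gcg, Epcam and Wfdc2 (484 barcodes), of which Epcam is an epithelial gene, had 639 CPM in Placebo 2 and 1723 and 1218 CPM in Progesterone 2 and 3. The highest macrophage cluster had 94.8 CPM in Progesterone 1, 2627 CPM in Placebo 2, and 528 and 532 CPM in Progesterone 2 and 3. Of all Ccl8 UMIs of Placebo 1, 94.5% lay in unnamed barcodes.

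Regulatory T cells, taken as the Foxp3-positive T cells, carried Ccl5 at 39.4 and 509 CPM in the placebo and 213, 920 and 399 CPM in the progesterone libraries, from 10 to 129 cells per library.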
